A study of Mus musculus with 6 samples.

Results

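The genes of mouse chromosome 8 were compared between 3 pluripotent stem cell lines. The set holds the array probes that the deposited annotation places on chromosome 8 and that were detected (detection p under 0.05, against the negative controls) on at least 2 of the 6 arrays. Of the 45281 probes in the table, 1279 were placed on chromosome 8, and 706 of these, for 513 of the 28935 genes named in the table, met that rule. The members were thus chosen by their position and their detection p-values. The chromosome was picked for description because its probes were already known, from earlier work on these arrays, to be shifted together, so the size of that shift is given below as a description, with no test.

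The 3 lines were PB-Oct4.2A.cherry iPS-/- cells (called iPS here), PB-Oct4.2A.cherry (low) iPS-/- cells (called low iPS) and embryonic stem (ES) cells, each measured on 2 arrays. The background strain of all the cells was given as B6. All were grown in medium with knockout serum replacement, leukaemia inhibitory factor, 3 µM CHIR99021 (a GSK3 inhibitor) and 1 µM PD0325901 (a MEK inhibitor). Induced pluripotent stem (iPS) cells are made from differentiated cells by forcing the expression of a few transcription factors, among them Oct4, the product of Pou5f1. The line names hold the words Oct4 and cherry (cherry is a red fluorescent protein); the labels say neither what low describes nor, for both iPS lines, which gene the -/- refers to. The 2 samples of a line were called biological replicates in the study's design text. Each kind of cell is 1 line, and the low iPS samples are titled as 1 clone, so the tests measure the spread between samples of a line and not between lines.

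Chromosome 8 of the mouse carries genes of many unrelated functions, among them Klf2, Zfp42 (Rex1), Sall1 and Nanos3 of the pluripotent and germ cell network, the cadherins Cdh1 and Cdh3, the metallothioneins, and the chromatin organiser Ctcf. In pluripotent cultures, a whole chromosome or a long segment of one can be gained or lost, and the RNA of its genes then usually moves together by a modest factor. Gain of chromosome 8 is a known recurrent change in mouse ES cultures. DNA copy number was not measured here, and in bulk RNA a share of cells with another copy number and an equal change in every cell cannot be told apart.

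The 6 arrays detected between 35.9% and 37.6% of all probes, and their median intensity lay between 87.3 and 95.98. Pearson correlations of log2 values over the 18175 detected probes were 0.982, 0.988 and 0.980 between the 2 arrays of the iPS, low iPS and ES lines, against 0.955 to 0.980 between arrays of different lines. All 8 markers of pluripotent cells were detected on all 6 arrays. The intensity of the Pou5f1 probe was 1837 and 2150 in iPS, 593 and 538 in low iPS, and 4584 and 5054 in ES. ES replicate 2 stood apart from ES replicate 1. It lay above it by a median of 0.134 (log2) over chromosome 8 and 0.167 over chromosome 6, against -0.044 to 0.023 on the 17 other autosomes. The summed intensity of 9 fibroblast markers was 1784 in ES replicate 2 and 806 to 979 on the other 5 arrays, mostly through Acta2 (1037 against 185 in ES replicate 1), while 5 of the 9, including Col1a1 and Col3a1, were detected on no array. The summed intensity of 4 trophectoderm markers was 4276 and 4960 in low iPS and 1731 to 2611 on the other arrays, largely Tfap2c, and that of 6 markers of extraembryonic endoderm was 1135 and 833 in low iPS and 549 to 625 elsewhere, with 3 of the 6 (Gata4, Sox17 and Foxa2) detected nowhere. The part of these cells or genes in the results below was not tested.

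The 6 promoters printed here are those of genes the results turn on. Insl3 and B3gnt3 lie next to each other and were both higher in low iPS than in iPS. Chst5 was lower in iPS than in both other lines, Prdx2 and Irs2 lay above the common shift in iPS against ES, and Ctcf followed the shift. Each is 300 bases around the gene's start, from 250 before to 50 after it, read 5′ to 3′ on the gene's strand from RefSeq, build GRCm38.p6. Capitals mark matches, on either strand, to the octamer motif ATGCAAAT, to the TATA box motif TATAAA, to the GC box motif GGGCGG, to the CCAAT box motif CCAAT or to the E-box motif CACGTG.
Insl3 (chr8:71689002-71689301, plus strand): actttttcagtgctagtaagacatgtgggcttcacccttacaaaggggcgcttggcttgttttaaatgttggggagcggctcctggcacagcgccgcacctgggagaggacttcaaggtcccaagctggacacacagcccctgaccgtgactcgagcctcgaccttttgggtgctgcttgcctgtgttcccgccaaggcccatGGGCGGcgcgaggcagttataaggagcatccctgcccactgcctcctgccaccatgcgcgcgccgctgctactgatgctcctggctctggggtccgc
B3gnt3 (chr8:71701751-71702050, minus strand): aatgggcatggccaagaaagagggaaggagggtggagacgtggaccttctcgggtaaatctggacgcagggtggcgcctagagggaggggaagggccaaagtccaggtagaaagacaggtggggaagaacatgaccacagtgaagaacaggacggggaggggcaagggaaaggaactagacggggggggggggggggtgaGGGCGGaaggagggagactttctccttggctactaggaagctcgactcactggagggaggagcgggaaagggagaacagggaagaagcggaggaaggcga
Chst5 (chr8:111910150-111910449, minus strand): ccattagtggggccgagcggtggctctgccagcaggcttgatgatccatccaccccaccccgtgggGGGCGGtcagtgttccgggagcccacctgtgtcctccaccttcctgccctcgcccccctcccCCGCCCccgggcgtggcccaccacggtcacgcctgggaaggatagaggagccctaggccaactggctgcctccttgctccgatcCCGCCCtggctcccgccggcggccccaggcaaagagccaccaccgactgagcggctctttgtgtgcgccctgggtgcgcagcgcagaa
Prdx2 (chr8:84969372-84969671, plus strand): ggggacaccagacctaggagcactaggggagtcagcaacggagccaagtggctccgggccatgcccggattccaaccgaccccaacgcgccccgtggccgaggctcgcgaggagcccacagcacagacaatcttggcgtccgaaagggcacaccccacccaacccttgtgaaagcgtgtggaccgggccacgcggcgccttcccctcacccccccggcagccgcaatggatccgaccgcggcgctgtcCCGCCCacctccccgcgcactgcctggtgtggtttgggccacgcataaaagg
Irs2 (chr8:11008880-11009179, minus strand): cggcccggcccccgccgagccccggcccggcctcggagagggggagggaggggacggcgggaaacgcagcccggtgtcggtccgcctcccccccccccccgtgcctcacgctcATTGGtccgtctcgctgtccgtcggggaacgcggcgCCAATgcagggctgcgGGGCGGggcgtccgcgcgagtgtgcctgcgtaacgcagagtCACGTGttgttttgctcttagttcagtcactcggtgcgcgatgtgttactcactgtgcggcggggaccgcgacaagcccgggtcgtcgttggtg
Ctcf (chr8:105636288-105636587, plus strand): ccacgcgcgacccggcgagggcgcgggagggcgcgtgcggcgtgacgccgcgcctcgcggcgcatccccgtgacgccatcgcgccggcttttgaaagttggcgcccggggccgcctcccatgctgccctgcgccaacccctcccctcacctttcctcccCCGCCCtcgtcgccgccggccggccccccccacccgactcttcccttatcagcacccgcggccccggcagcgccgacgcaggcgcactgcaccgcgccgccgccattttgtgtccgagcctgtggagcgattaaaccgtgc

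The GC box was found in all 6 of them, and the Irs2 promoter also held the CCAAT box and the E-box. Of the 513 genes of the set, 275 had exactly 1 entry in the promoter table. Among those 275, 68.0% held the GC box, 38.9% the CCAAT box, 11.3% the E-box, 7.27% the TATA box and 2.18% the octamer. Over all 22862 genes with 1 promoter the shares were 35.2%, 38.2%, 7.12%, 14.8% and 1.82%, but that table also holds many genes that are silent in these cells, so the 2 sets are not alike. Promoters of the set held a median of 22 CpG sites against 7 over all genes. The median difference of iPS against ES was -0.29 for genes with 1 to 17 CpG sites, -0.35 with 18 to 26 and -0.33 with 27 to 60. The shift was therefore present in genes of all 3 classes of promoter.

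Chromosome 8 RNA was lowest in the iPS line, intermediate in low iPS and highest in ES. The level of a probe is its background-corrected, quantile-normalised log2 intensity, and a difference of 1 is 2-fold. Taking each probe's deviation from its own mean over the 6 arrays, the median over the 706 probes was -0.151 and -0.167 on the 2 iPS arrays, 0.005 and -0.001 on the low iPS arrays, and 0.087 and 0.219 on the ES arrays. The 3 lines did not overlap in this median, and the gap between the ES arrays was wider than that within either other line.

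**Figure D1:**
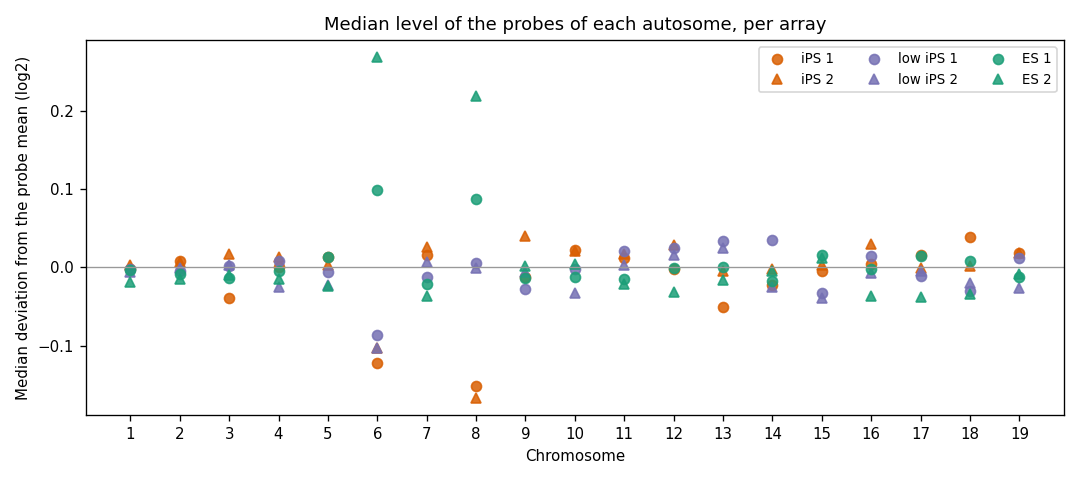
Median deviation of the probes of each autosome from their own mean over the 6 arrays (y axis, log2), by chromosome (x axis); colours are the lines and shapes the replicates. On chromosome 8 the iPS arrays lie at -0.151 and -0.167 and the ES arrays at 0.087 and 0.219, while on chromosome 6 both iPS and low iPS lie below ES.

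The median difference over the 706 probes was -0.32 in iPS against ES, which is 1.25-fold lower in iPS, and 586 of 706 (83.0%) were negative against 48.8% on the other autosomes. It was 0.16 in low iPS against iPS, with 481 of 706 (68.1%) positive against 47.6% elsewhere. It was -0.15 in low iPS against ES, with 465 of 706 (65.9%) negative against 51.0% elsewhere. Among the other autosomes, chromosome 6 also stood off, with medians of -0.28 in iPS against ES and -0.29 in low iPS against ES but 0.01 in low iPS against iPS. Without chromosomes 6 and 8, the autosomes had medians from -0.03 to 0.05 in iPS against ES, -0.06 to 0.03 in low iPS against iPS and -0.06 to 0.04 in low iPS against ES. The X chromosome, with 439 probes, stood off too, with medians of 0.31, -0.46 and -0.12 in the same order, of which the second was larger in size than any median of chromosome 8. These comparisons share their arrays, so they are not independent of each other.

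Each of the 4 pairs of single arrays in a comparison gave a median of the same sign. In iPS against ES the pairs gave -0.24, -0.36, -0.25 and -0.40. The pairs of low iPS against iPS were closely spaced, at 0.14, 0.16, 0.15 and 0.15. Low iPS against ES depended most on the ES array, with -0.08 and -0.09 against ES replicate 1 and -0.23 and -0.22 against ES replicate 2. With the median of the other autosomes subtracted, the shift of low iPS against ES was -0.141, and it was -0.0731 without ES replicate 2 and -0.225 without ES replicate 1. That of iPS against ES was -0.327, and -0.248 without ES replicate 2.

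**Figure D2:**
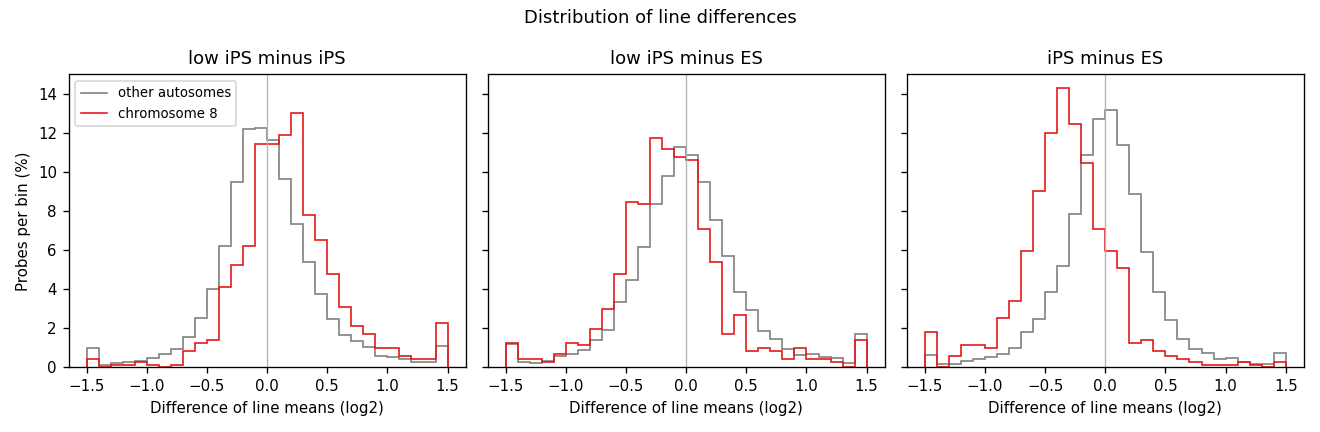
Distribution of the difference of line means (x axis, log2, in bins of 0.1, with the outermost bins holding everything beyond) as the percentage of probes in each bin (y axis), for the 706 chromosome 8 probes (red) and the probes of the other autosomes (grey). In iPS minus ES the red curve is displaced to the left as a whole, with a median of -0.32 against 0.01.

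The whole distribution was displaced and not one tail. In iPS against ES, the middle 50% of chromosome 8 probes lay between -0.51 and -0.11, against -0.20 to 0.22 on the other autosomes. In low iPS against iPS it lay between -0.05 and 0.38, against -0.23 and 0.21. In low iPS against ES it lay between -0.38 and 0.08, against -0.25 and 0.25. Over the 580 probes detected on all 6 arrays, both iPS arrays lay below both ES arrays for 337 (58.1%, against 21.3% of all such probes in the series) and above them for 22 (3.79%, against 21.4%). Both low iPS arrays lay above both iPS arrays for 253 (43.6%, against 23.6%) and below for 59 (10.2%, against 25.7%). They lay below both ES arrays for 222 (38.3%, against 26.8%) and above for 66 (11.4%, against 23.8%). The order of line means iPS, low iPS, ES, from low to high, was held by 230 of the 580 (39.7%), against 13.3% on the other autosomes.

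The shift was present from one end of the chromosome to the other. When the genes were ordered along the chromosome and divided into 10 blocks of 48 or 49 genes, the median of iPS against ES lay between -0.43 (the block from Siah1a to Tradd) and -0.22 (from Insr to Alg11) and was negative in all 10. The median of low iPS against iPS lay between 0.05 (from Nr2f6 to Zfp330) and 0.26 (from Txnl4b to Hsdl1), and that of low iPS against ES between -0.28 and -0.12. In each block both iPS arrays lay below 0 and both ES arrays above 0, and the number of genes with a negative iPS against ES difference ranged from 37 to 45.

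**Figure D3:**
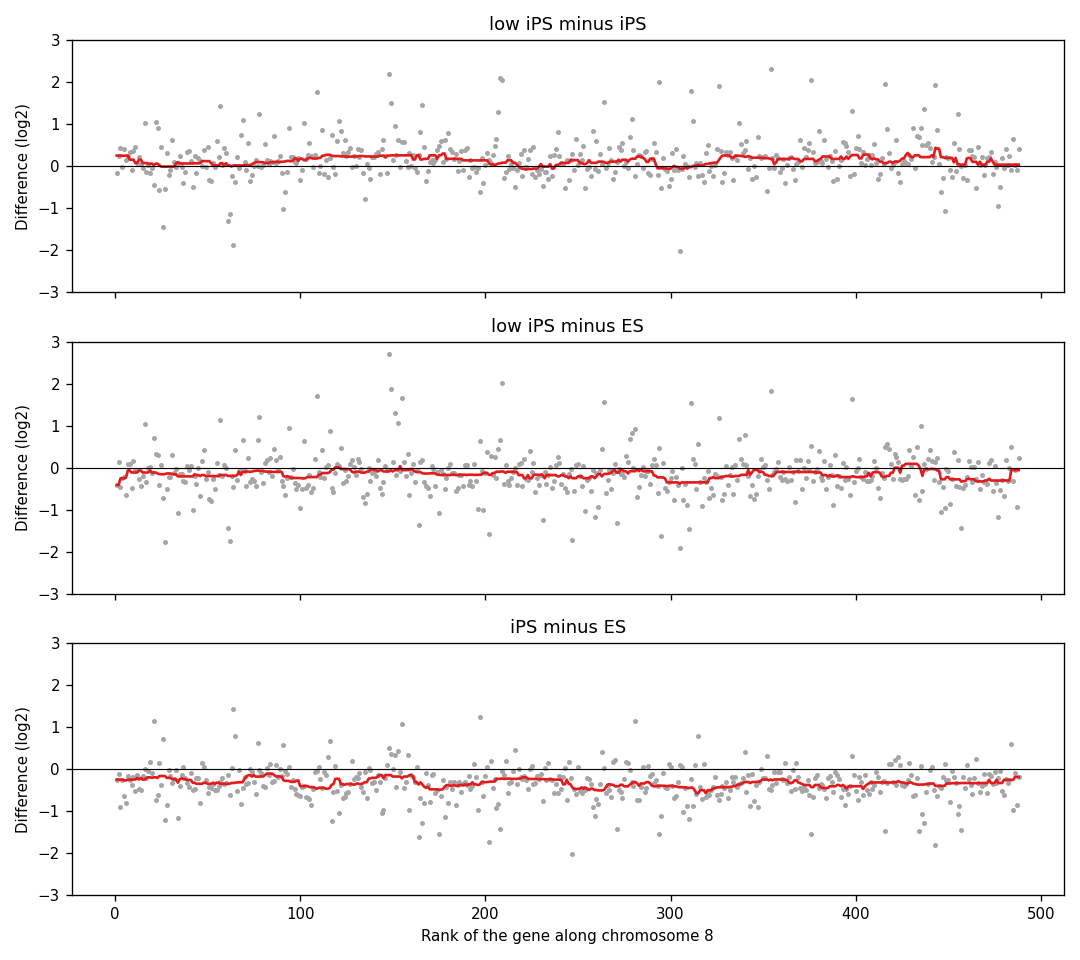
Difference of line means (y axis, log2) for each gene by its rank along chromosome 8 (x axis), in the 3 comparisons; points are genes, by their brightest probe, and the red line is the running median. The iPS minus ES line stays below 0 along the whole chromosome, while single genes reach from -2.01 to 1.44.

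The shift was smaller among dim probes. In 3 classes of equal size by mean level, the median of iPS against ES was -0.21, -0.38 and -0.34 from the dimmest to the brightest, and that of low iPS against iPS was 0.10, 0.20 and 0.17. At the limit of the rule, the 34 probes detected on exactly 2 arrays had a median of -0.04 in iPS against ES, and the 48 detected on 1 array, just outside it, had -0.08. The 580 detected on all 6 had -0.34, while the 525 detected on none had 0.00. Another set of probes not used by the rule had no chromosome in the deposited table but belonged to genes that RefSeq places on chromosome 8. The 156 of these detected on all 6 arrays had medians of -0.29 in iPS against ES, 0.16 in low iPS against iPS and -0.06 in low iPS against ES, and the 76 of them for the 65 genes that the 706 probes do not cover had -0.29, 0.17 and -0.07. The 2480 such probes of other autosomes had medians between -0.01 and 0.00.

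Groups of genes with general cell functions differed between iPS and ES by about as much as the chromosome as a whole. All 19 measured genes of DNA replication, cell cycle and repair had a lower mean in iPS than in ES, with a median of -0.35, from -0.84 for Cul4a, the scaffold of a ubiquitin ligase, to -0.04 for Wrn, a DNA helicase. None of them passed the test. All 18 genes of ribosomes, translation and RNA handling were also negative, with a median of -0.31 and a range from -0.69 (Farsa, a subunit of phenylalanyl-tRNA synthetase) to -0.14 (Upf3a, a factor of nonsense-mediated decay), and none passed. Of the 21 genes of chromatin and transcription, 17 were negative, with a median of -0.35, and of the 18 genes of protein folding, ubiquitin and trafficking 15 were, with a median of -0.34. For comparison, the median over all 706 probes was -0.32. In low iPS against iPS these lists, in the order named, had medians of 0.14, 0.08, -0.0039 and 0.0046, against 0.16 over all 706. In that comparison 11 of the 21 genes of chromatin and transcription were negative. So were 9 of the 18 genes of protein folding, ubiquitin and trafficking. The medians of the lists of chromatin and of protein folding thus lay below that of the chromosome in low iPS against iPS. Whether these lists differ from the chromosome as a whole was not tested. The level of Ctcf, which organises chromatin loops, was 9.26 and 9.20 in iPS, 9.42 and 9.45 in low iPS, and 9.64 and 9.57 in ES. Its 3 lines did not overlap and followed the order of the chromosome, with a difference of -0.37 (SE 0.17) in iPS against ES (adjusted p = 0.391). Most genes of these lists were lower in iPS than in ES, while none passed a test alone.

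**Figure D4:**
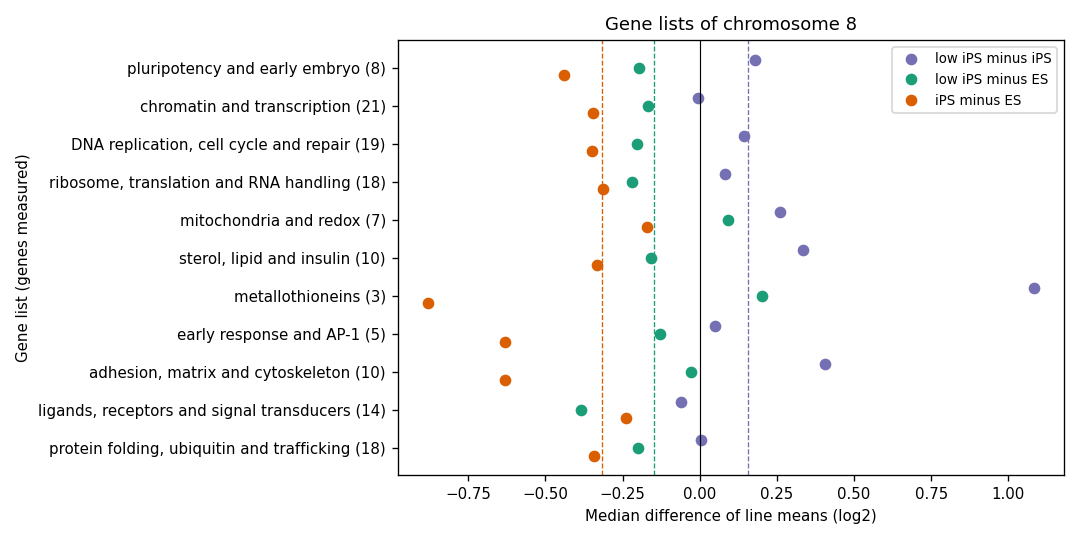
Median difference of line means (x axis, log2) of the chromosome 8 genes of 11 functional lists (y axis, with the number of genes measured), in the 3 comparisons; dashed lines are the medians over all 706 probes. The 4 lists of 18 to 21 genes lie close to the dashed line of -0.32 in iPS minus ES, and the lists farthest from it hold 3 to 10 genes.

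Among the 8 pluripotency and early embryo genes, 1 passed a test. Nanos3, an RNA-binding protein needed by primordial germ cells, had levels of 4.68 and 5.24 in iPS, 6.22 and 6.77 in low iPS, and 5.08 and 4.78 in ES. Both low iPS arrays lay above the other 4. It rose by 1.53 (SE 0.27) in low iPS against iPS (adjusted p = 0.0391) and by 1.56 against ES (adjusted p = 0.0241). The first of these calls was lost when either low iPS array or iPS replicate 1 was left out, and the second when either low iPS array or ES replicate 2 was. Both were also lost without the detection filter and without background correction, and the first with a background offset of 50. The Nanos3 probe was detected on 1 of the 2 iPS arrays and 1 of the 2 ES arrays. Relative to the chromosome's median, Nanos3 departed by 1.37 against iPS (adjusted p = 0.0644) and by 1.71 against ES (adjusted p = 0.0195). Klf2, a transcription factor of the naive pluripotent state, ran against the chromosome, with 11.93 and 12.09 in iPS, 11.41 and 11.64 in low iPS, and 11.82 and 11.25 in ES, but its difference of 0.47 (SE 0.23) in iPS against ES was not past the threshold (adjusted p = 0.427). Zfp42 (Rex1), a zinc finger protein used as a pluripotency marker, had -0.55 (SE 0.30) in iPS against ES, and Sall1, a zinc finger repressor, had -0.40 (SE 0.19); neither passed.

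In low iPS against iPS, the probes called were mostly higher. Of the 706, 18 rose (2.55%, against 0.974% of all probes tested) and 2 fell (0.283%, against 0.952%), or 20 in either direction against 1.93% of all probes, by limma's moderated test with Benjamini-Hochberg adjustment over all 18175 probes. The called genes are known for xenobiotic acetylation (Nat1, Nat2), peptide signalling (Agrp, Insl3, Il34), carbohydrate modification (B3gnt3, Chst5, Hgsnat), adhesion and membrane structure (Cdh3, Sgcz), cytokine signalling (Jak3), vesicle coats (Ap3m2) and germ cells (Nanos3). The count fell to 3 or 14 when iPS replicate 1 or 2 was left out, and to 6 or 2 when low iPS replicate 1 or 2 was.

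Nat1 and Nat2 encode arylamine N-acetyltransferases and lie side by side, with no protein-coding gene between them. Nat1 levels were 5.58 and 5.15 in iPS, 7.82 and 7.31 in low iPS, and 4.88 and 4.82 in ES. Low iPS lay above all 4 other arrays, and the probe was detected on neither ES array. It rose by 2.20 (SE 0.24, 4.60-fold) against iPS (adjusted p = 0.00691) and at least 5.67-fold against ES (adjusted p = 0.00175), and both calls held in all 6 fits that left out 1 array, though that against iPS did not pass without the detection filter (adjusted p = 0.0572). Nat2 levels were 7.22 and 7.22 in iPS, 8.79 and 8.66 in low iPS, and 7.03 and 6.66 in ES. Here too low iPS was the highest, by 1.51 (SE 0.20) against iPS (adjusted p = 0.0132) and 1.88 (SE 0.20) against ES (adjusted p = 0.00384). Its call against ES held in all 6 such fits, and that against iPS was lost when either low iPS array or iPS replicate 1 was left out (highest adjusted p 0.107). The files hold no probe sequences, so whether a probe reads both of these related genes was not checked.

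A second run of neighbours, picked out after the values were seen, was Jak3, Insl3 and B3gnt3. Ordered by their start positions, they follow one another with no other protein-coding gene starting between them. Whether these genes overlap, or a probe reads more than 1 of them, was not checked. Insl3, a peptide hormone of the relaxin family, had levels of 6.05 and 6.68 in iPS, 8.31 and 8.59 in low iPS, and 7.44 and 8.13 in ES. It rose by 2.09 (SE 0.30) in low iPS against iPS (adjusted p = 0.0193, lost without iPS replicate 1 or either low iPS array), and ES lay between. B3gnt3, an N-acetylglucosaminyltransferase that extends glycan chains, had 7.10 and 6.40 in low iPS but 4.76 and 4.60 in iPS and 4.73 and 4.70 in ES, where it was detected on no array. It was at least 3.12-fold higher in low iPS than in iPS (adjusted p = 0.0106) and at least 3.21-fold higher than in ES (adjusted p = 0.00689). The B3gnt3 probe entered the set only through the low iPS arrays, where it was high, so the detection filter favoured these differences. Its call against iPS was lost without iPS replicate 1 and without the detection filter, while that against ES also passed without the filter. Jak3, a kinase of cytokine receptors, had 5.64 and 5.89 in iPS, 6.99 and 7.11 in low iPS, and 6.30 and 6.90 in ES. Its rise of 1.29 (SE 0.24) against iPS was just past the threshold (adjusted p = 0.0461) and did not pass when either iPS or either low iPS array was left out. Nor did it pass without the detection filter, over probes detected on all 6 arrays, with a background offset of 50 or without background correction. All 3 genes were thus highest in low iPS, but against ES only B3gnt3 was called (adjusted p = 0.285 for Insl3 and 0.364 for Jak3).

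Agrp, the agouti-related neuropeptide that blocks melanocortin receptors, had levels of 5.48 and 5.995 in iPS, 7.69 and 8.43 in low iPS, and 6.22 and 6.24 in ES. It had the largest fitted rise of the chromosome in low iPS against iPS, 2.32 (SE 0.29, adjusted p = 0.0109), and rose by 1.83 against ES (adjusted p = 0.0161). Sgcz, a sarcoglycan of the membrane complex of muscle cells, was detected only in low iPS, with 6.14 and 6.28 there, and was at least 2.15-fold above iPS (adjusted p = 0.00691) and at least 2.22-fold above ES (adjusted p = 0.00468). The Sgcz probe entered the set only through the low iPS arrays, where it was high, so the detection filter favoured these differences. Both of its calls also passed without that filter. Il34, a ligand of the receptor Csf1r, rose by 1.32 against iPS and 1.63 against ES (adjusted p = 0.0386 and 0.0117). Hgsnat, a lysosomal acetyltransferase of heparan sulfate breakdown, rose by 1.24 and 1.21 (adjusted p = 0.027 and 0.0186). Ap3m2, a subunit of the AP-3 vesicle coat, rose by 1.43 and 1.13 (adjusted p = 0.0245 and 0.0358). Both Ap3m2 calls and that of Il34 against ES were lost without the detection filter, and that of Ap3m2 against ES also with median scaling. The calls of Il34 and Hgsnat against iPS were not followed through the alternatives. Calls of Agrp were lost without low iPS replicate 2, against iPS also without iPS replicate 1 and against ES also without ES replicate 2, and both without the detection filter (highest adjusted p 0.0836 and 0.106). Those of Sgcz were lost without low iPS replicate 2 alone (highest 0.0808 and 0.0565), and those of Ap3m2, and of Il34 and Hgsnat against ES, without either low iPS array and, in turn, without ES replicate 2 (all 3 against ES), ES replicate 1 (Ap3m2 and Hgsnat against ES) or iPS replicate 1 (Ap3m2 against iPS).

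Cdh3 and Chst5 had their low values on the iPS arrays. Cdh3, the adhesion molecule P-cadherin, had 4.94 and 5.15 in iPS, 6.73 and 7.47 in low iPS, and 6.61 and 6.58 in ES. It rose by 2.06 (SE 0.26) in low iPS against iPS (adjusted p = 0.0121, lost without iPS replicate 1 or low iPS replicate 2), and the difference of -1.55 in iPS against ES missed the threshold (adjusted p = 0.052); it passed with median scaling (adjusted p = 0.0419) and with only the 4 arrays of the comparison (adjusted p = 0.045). The Cdh3 probe was detected on 1 of the 2 iPS arrays, and its call in low iPS against iPS was also lost without the detection filter. Cdh1 (E-cadherin), the adjacent gene, had 9.99 and 9.80 in iPS, 10.36 and 10.09 in low iPS, and 10.45 and 10.65 in ES, a difference of 0.33 (SE 0.20) in low iPS against iPS that did not pass. Chst5, a carbohydrate sulfotransferase, was detected on all 4 low iPS and ES arrays, at 6.65, 6.74, 6.31 and 6.10, and on no iPS array. It was at least 3.01-fold higher in low iPS (adjusted p = 0.00487) and at least 2.15-fold higher in ES (adjusted p = 0.0186) than in iPS. The Chst5 probe met the detection filter only through the low iPS and ES arrays, where it was high, so that filter favoured these differences. The call against ES was lost without the filter, without background correction and with only the 4 arrays of the comparison. That against low iPS passed in each of these. The call against ES was kept in 1 of 6 fits that left out 1 array, the fit without ES replicate 1 (highest adjusted p 0.0878), and that against low iPS was lost without low iPS replicate 2 (0.0613).

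The other genes of adhesion, matrix and cytoskeleton ran the same way as the chromosome. By their brightest probes, all 10 measured were negative in iPS against ES, with a median of -0.63. They ranged from -1.55 (Cdh3) to -0.18 (Itgb1, an integrin subunit), and none passed. Dimmer probes of Pard3 had 0.0308 and 0.0033, against -0.85 for its brightest. A dimmer probe of Palld, an actin-associated protein, fell by 1.19 (SE 0.19, adjusted p = 0.0422), and its brighter probe had -1.03 (adjusted p = 0.0559). In low iPS against iPS, 2 of the 10 rose, Cdh3 and Tacc1, a centrosomal protein, with 1.11 (SE 0.18, adjusted p = 0.0274); a second, dimmer Tacc1 probe gave 0.12. The Tacc1 call was lost when any 1 of the 4 iPS and low iPS arrays was left out (highest adjusted p 0.182). The 2 adjacent collagen IV genes had 1.05 (Col4a1) and 0.90 (Col4a2) with SE of 0.38 and 0.33, and ES replicate 2 exceeded ES replicate 1 in both, by 8.77 to 7.61 and 7.18 to 6.27. They did not pass.

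Metallothioneins, small metal-binding proteins, varied widely between arrays. Mt1 levels were 12.42 and 13.18 in iPS, 14.02 and 13.75 in low iPS, and 13.61 and 13.75 in ES. Mt2 had 6.01 and 6.71, 8.05 and 8.24, and 7.16 and 6.03 in the same order. Both were higher on the low iPS arrays than on the iPS arrays, by 1.08 (SE 0.27, adjusted p = 0.101) and 1.78 (SE 0.38, adjusted p = 0.0676), and neither passed. Mt3, the third member measured, was detected on the ES arrays alone, at 5.32 and 6.41. The iPS arrays had 4.65 and 4.72 and the low iPS arrays 4.47 and 4.36. Its difference in low iPS against iPS was -0.26 (SE 0.33, adjusted p = 0.767), and that of -1.45 against ES missed the threshold (adjusted p = 0.0552). As a bound, Mt3 was at least 1.74-fold lower in low iPS than in ES. The probe met the detection filter only through the ES arrays, where it was high, so that filter favoured this difference.

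The remaining lists held few calls. Among 7 genes of mitochondria and redox, 5 were negative in iPS against ES, with a median of -0.17, and Prdx2, described below, was the 1 that rose in low iPS against ES. The 10 sterol, lipid and insulin genes had a median of -0.33 in iPS against ES and 0.33 in low iPS against iPS; Isyna1, which makes inositol phosphate, was the lowest at -1.13 (SE 0.33, adjusted p = 0.197), and Irs2 the highest. Lpl was the 1 of them that rose in low iPS against ES. All 5 early response and AP-1 genes were negative in low iPS against ES (median -0.13), and Junb, a subunit of AP-1, had -0.74 (SE 0.21) in iPS against ES (adjusted p = 0.198). The 14 ligands, receptors and signal transducers had a median of -0.38 in low iPS against ES, with Sfrp1, a secreted Wnt antagonist, the lowest at -1.42 (SE 0.32, adjusted p = 0.0552), and Jak3 was the 1 that rose in low iPS against iPS.

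In the opposite direction, Mmp2, a gelatinase of the extracellular matrix, had 7.63 and 7.03 in iPS, 5.62 and 5.05 in low iPS, and 6.84 and 7.63 in ES. Both low iPS arrays lay below the other 4, and it fell by 2.00 (SE 0.34) against iPS (adjusted p = 0.0326) and by 1.90 against ES (adjusted p = 0.0253). The calls were lost when either low iPS array was left out, and without iPS replicate 1 or ES replicate 2 in turn. Neither call passed without the detection filter or without background correction. Values lay between -2.30 and -1.02 over all alternatives. Only 1 low iPS replicate gave a detected Mmp2 signal, so the level of Mmp2 in that line lay near background. The other probe that fell in low iPS against iPS belongs to a transcript with only a clone name, 1700016D06Rik (-1.45). Relative to the chromosome's median, 11 probes lay above (1.56%, against 0.941% of all probes) and 4 below (0.567%, against 0.787%), or 15 in all against 1.73%. Below were Mmp2, 1700016D06Rik, Ido1, the first enzyme of tryptophan breakdown, and Fut10, a fucosyltransferase. Ido1 had 7.56 and 6.27 in iPS, 4.80 and 5.26 in low iPS, and 5.37 and 5.58 in ES, and departed by -2.04 (adjusted p = 0.0475). Fut10 departed by -1.19 (adjusted p = 0.0369), but its dimmer probe by -0.39 (adjusted p = 0.393).

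**Figure D5:**
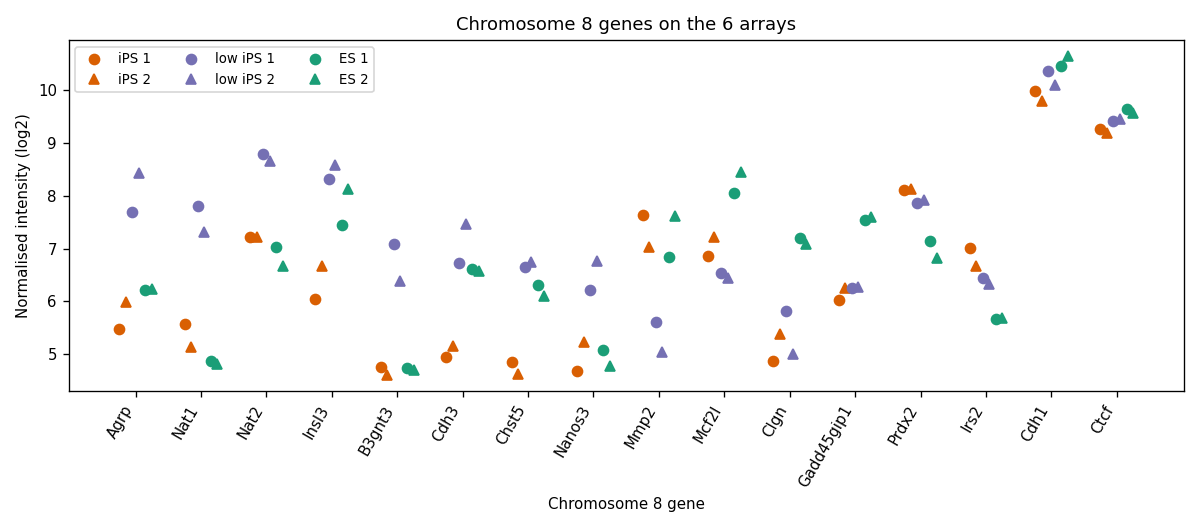
Normalised log2 intensity (y axis) of 16 chromosome 8 genes (x axis) on the 6 arrays; colours are the lines and shapes the replicates, and levels are to be compared within a gene only. Agrp, Nat1, Nat2, B3gnt3 and Nanos3 are highest on both low iPS arrays, Mmp2 is lowest there, and Ctcf shows the modest order iPS, low iPS, ES.

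Against ES, the low iPS line had 17 probes that rose (2.41%, against 2.27% of all probes) and 14 that fell (1.98%, against 1.72%), or 31 in all against 3.98%, shares close to those of the whole series. Besides the genes above, Lpl, the lipoprotein lipase, rose by 1.30 (SE 0.26, adjusted p = 0.0391), with 9.73 and 9.94 in ES and 10.80 and 11.47 in low iPS. Its call was lost when any 1 of these 4 arrays was left out and without the detection filter (highest adjusted p 0.248). The falls were led by Mmp2 and by Mcf2l, a guanine nucleotide exchange factor. Mcf2l had 6.86 and 7.22 in iPS, 6.53 and 6.45 in low iPS, and 8.05 and 8.45 in ES. It fell by 1.76 (SE 0.22, adjusted p = 0.00711), and a dimmer probe fell at least 2.26-fold (adjusted p = 0.00824); the call of the brighter probe was lost without either low iPS array (highest adjusted p 0.0721). The count was 6 without low iPS replicate 1, 3 without low iPS replicate 2 and 7 without ES replicate 2.

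Other falls were found for Zfp423, a zinc finger transcription factor, for Zmat4, for Plvap, a protein of endothelial fenestrae, and for Clgn, a chaperone known from male germ cells. Zfp423 was detected on neither low iPS array and was at least 1.99-fold lower there (adjusted p = 0.018). The calls of Zfp423 and Zmat4 were lost without either low iPS array and without the detection filter, and that of Zfp423 also without ES replicate 2 (highest adjusted p 0.137 and 0.125). That of Plvap, at an adjusted p of 0.0483, was kept in 1 of 6 fits that left out 1 array, the fit without ES replicate 1, and in 2 of 7 other alternatives (highest adjusted p 0.294). Clgn had 4.88 and 5.39 in iPS, 5.82 and 5.01 in low iPS, and 7.20 and 7.08 in ES. It was high in ES alone, and fell by 1.72 (SE 0.30) in low iPS (adjusted p = 0.0231) and by 2.01 (SE 0.30) in iPS (adjusted p = 0.0338). The Clgn probe was detected on 1 of the 2 iPS arrays and 1 of the 2 low iPS arrays. Neither of its calls passed without the detection filter. Gadd45gip1, a mitochondrial ribosome protein, had a like pattern, with 6.03 and 6.26 in iPS, 6.25 and 6.27 in low iPS, and 7.54 and 7.60 in ES. It fell by 1.31 (SE 0.18) in low iPS (adjusted p = 0.0106) and by 1.43 (SE 0.18) in iPS (adjusted p = 0.0175). In iPS, the Clgn call was kept in 2 of 6 fits that left out 1 array and the Gadd45gip1 call in 1 of 6, the losses including ES replicate 2 for both (highest adjusted p 0.189 and 0.125); in low iPS each was kept in 3 of 6, again lost without ES replicate 2. Nr2f6, an orphan nuclear receptor, was the 1 gene of the 21 of chromatin and transcription that fell, by 0.99 (SE 0.20, adjusted p = 0.0408), and Gse1 and Adgrl1 fell by 1.05 and 1.02 (adjusted p = 0.0443 and 0.037). Of the 6 fits that left out 1 array, the Adgrl1 call was kept in 0, the Nr2f6 call in 1, the fit without ES replicate 1, and the Gse1 call in 2, those without an iPS array (highest adjusted p 0.207, 0.229 and 0.298). Relative to the chromosome's own median, 21 probes lay above (2.97%, against 2.34%) and 8 below (1.13%, against 1.62%), or 29 in all against 3.96%, the latter of Mmp2, Zmat4, Clgn and Gadd45gip1 with 1 probe each and of Mcf2l and Zfp423 with 2 each.

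In iPS against ES, where the shift was largest, only 5 of the 706 probes were called (against 0.715% of all probes): 4 fell (0.567%, against 0.347% of all probes) and 1 rose (0.142%, against 0.369%). The falls were those of Clgn, Chst5, Gadd45gip1 and the dimmer Palld probe. The count was 0 without iPS replicate 1, with 102 probes at an unadjusted p under 0.05, and 0 without ES replicate 2, with 90; it was 1 without iPS replicate 2, 3 without either low iPS array and 14 without ES replicate 1.

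The probe that rose belongs to Prdx2, a peroxiredoxin that reduces hydrogen peroxide. Its brighter probe had 8.12 and 8.12 in iPS, 7.86 and 7.93 in low iPS, and 7.14 and 6.82 in ES. Both ES arrays lay below all 4 others, against the direction of the chromosome. The difference in iPS against ES was 1.15 (SE 0.19, adjusted p = 0.0501), just short of the threshold, and 0.92 in low iPS against ES (adjusted p = 0.0419, kept in 1 of 6 fits that left out 1 array). The dimmer probe, detected on all iPS and low iPS arrays and on neither ES array, was at least 1.91-fold higher in iPS than in ES (adjusted p = 0.0137). Relative to the shift, the brighter probe departed by 1.46 (adjusted p = 0.0262).

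Irs2 and Ushbp1 also lay above the shift. Irs2, an adaptor of the insulin receptor, had 7.01 and 6.67 in iPS, 6.45 and 6.33 in low iPS, and 5.67 and 5.69 in ES, the reverse of the order of the chromosome. It departed by 1.47 (adjusted p = 0.0186), while the difference itself was 1.16 (SE 0.19, adjusted p = 0.0509). Ushbp1, named for binding harmonin in human cells, had 7.08 and 6.60 in iPS, 5.98 and 6.49 in low iPS, and 5.54 and 5.67 in ES, and departed by 1.55 (adjusted p = 0.0396). In all, 5 probes departed (against 0.765%): 4 lay above the chromosome's median (0.567%, against 0.402% of all probes) and 1 below (0.142%, against 0.363%), the last of Gadd45gip1, with -1.11 (adjusted p = 0.0456). None of these departures, those of Prdx2 included, passed without iPS replicate 1. Most were lost without ES replicate 2 or without either low iPS array. Over probes detected on all 6 arrays, 3 departed.

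Of the 706 probes, 40, for 36 genes, were called in at least 1 comparison and 666 in none, and 37 departed from the common shift in at least 1. No share over all probes was computed for these combined counts, so they do not show whether the chromosome is unusual. Of the called probes, 13 of 20 also departed in low iPS against iPS. The like counts were 25 of 31 in low iPS against ES and 2 of 5 in iPS against ES. Nanos3, Jak3 and Tacc1 were called in low iPS against iPS without departing (adjusted p of the departure 0.0644, 0.0547 and 0.0503). So were Chst5 and Clgn in iPS against ES (0.0583 and 0.0609). Detection by line was uneven for few: 9 probes were detected on both arrays of low iPS and on no other array, 6 on both of ES alone and 0 on both of iPS alone. Such probes met the rule only through the line where they were detected, and no share over all probes was computed for them.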

How the data were processed

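RNA of 6 samples, 2 of each of 3 lines, was read on Illumina bead arrays. Per the labels' protocols, the RNeasy kit gave total RNA, which the TotalPrep-96 kit amplified and labelled with biotin. The deposited table holds a mean bead intensity for each probe and array, per the file headers. From the values, it was neither background-subtracted nor normalised between arrays. Each deposited p-value of detection counts how many of 936 negative controls matched or exceeded the probe, as a share. For the scanner software and the annotation build, the sources used here give no name. A further deposited table of normalised values was not used, because its probe identifiers match no column of the table that places probes on chromosomes.

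The nec function of limma 3.58.1 (R 4.3.3) removed background, with controls inferred from the detection p-values and an offset of 16; values were then taken to log2 and quantile normalised. The offset shrinks differences of dim probes. The filter kept the 18175 probes that were detected (p under 0.05) on 2 or more arrays. One linear model with 3 line means (lmFit, eBayes; 3 residual and 4.69 prior degrees of freedom) gave p-values adjusted by Benjamini-Hochberg over all kept probes, with calls under 0.05. With 2 arrays per line the precision is limited by their number. For departures from the common shift, the median deviation of each chromosome's probes on each array was subtracted first, and the same fit was run. Medians over the chromosome carry no p. Where a probe was detected on neither array of the dimmer line, the fold is a bound, at least N-fold: the brighter line's mean over a floor that, on each array, is the probe's signal or the lowest signal called detected, whichever is greater.

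Chromosomes are those of the deposited table. Of the 1279 chromosome 8 probes, 999 names matched a current RefSeq symbol 205 matched a synonym and 75 stayed as deposited; gene order and neighbours come from RefSeq GRCm38.p6, and genes with several probes are represented by the brightest unless stated. Named genes are, per comparison, up to 10 rises and 10 falls, by the brightest probe, of called genes with no overlap between lines and with both arrays of the higher line detected; up to 5 departures in each direction; up to 4 members with the smallest p of each of 11 lists; and 10 genes given in every comparison. Clone names were passed over. Dimmer probes, the extremes of lists, the neighbours Jak3, Insl3 and B3gnt3 as a run, 1700016D06Rik, and genes carried into a second comparison were chosen after their values were seen. The members and lists were chosen with earlier results of these data known. Alternatives were other filters, background corrections and scaling, 1 probe per gene, fewer arrays, a replicate block, and leaving out each array.

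The fit was tested on simulated arrays. The share of false calls matched the nominal rate when the spreads of probes were drawn from the fitted prior and exceeded it when each probe's own moderated spread was used; the pass mark was set on the first of these after the second had missed the mark originally chosen, and nothing in the processing was changed. Adjusted p-values close to the threshold should be read with this in mind.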

Additional observations from a re-analysis of the deposited data

How the results depend on the processing

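None of the 37 called differences of named genes and none of the 3 chromosome medians changed sign in an alternative that was run, but counts of calls depended on single arrays and on the filter. Leaving out 1 array at a time gave 2 to 23 calls in low iPS against iPS (20 with all arrays), 3 to 36 in low iPS against ES (31) and 0 to 14 in iPS against ES (5); departures from the common shift ranged from 1 to 22 (15), 6 to 34 (29) and 0 to 8 (5). Without the detection filter the calls were 4, 12 and 2 in the same order, and over probes detected on all 6 arrays 10, 17 and 2, with 5, 15 and 3 departures; these alternatives change which probes are tested, and the second tests fewer. In iPS against ES, 8 probes were called with an offset of 50, 9 with median scaling in place of quantile normalisation, and 3 when only the 4 arrays of the comparison were fitted.

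Medians over the chromosome, with the other autosomes subtracted, were 0.177 in low iPS against iPS, -0.141 in low iPS against ES and -0.327 in iPS against ES. Without the detection filter, which adds probes at background, they were 0.0522, -0.0312 and -0.106. In low iPS against iPS the median was 0.194 over probes detected on all 6 arrays, 0.127 with an offset of 50, 0.109 without background correction and 0.158 without the subtraction, and 0.169 to 0.179 without single arrays. In iPS against ES it was -0.224 without background correction and -0.379 to -0.248 without single arrays, and in low iPS against ES -0.225 to -0.0731 without single arrays. Where no construction shows it, the cause was not tested.

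Among the genes named, calls of Nat1 in both of its comparisons and of Nat2 and B3gnt3 in low iPS against ES were kept in all 6 fits that left out 1 array. B3gnt3 met the detection filter only through its low iPS arrays, where it was high. Of 500 values of called named genes under alternatives, 152 no longer passed. The replicate numbers of the 3 lines are the same, but with 2 numbers the design does not show that they pair samples. Deviations of same-numbered samples correlated at 0.297 (iPS and low iPS), 0.305 (iPS and ES) and 0.168 (low iPS and ES). With the replicate number as a block, 43, 52 and 22 probes were called, and 35, 55 and 13 departed, and the block also put the difference of Cdh3, iPS against ES, past the threshold (adjusted p = 0.0219). The alternative that takes the authors' normalised table was not run, because its probes could not be placed on chromosomes. Probes near background limit the rest: 525 of the 1279 probes of the chromosome were detected on no array.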
